A study of Mus musculus with 12 samples.

Results

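Calcineurin, the nuclear factors of activated T cells (NFAT) and calcium/calmodulin-dependent kinase II (CaMKII) carry calcium signals to gene transcription in cardiomyocytes. 10 of their genes were examined in the hearts of mice lacking Sdhaf4, an assembly factor of mitochondrial complex II. The genes were Rcan1, the calcineurin subunit genes Ppp3ca, Ppp3cb and Ppp3r1, the NFAT genes Nfatc1 to Nfatc4, and the CaMKII genes Camk2d and Camk2b. They were chosen by name, and each matched 1 of the 43686 rows of the count table. All 10 were among the 17155 rows tested.

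Calcineurin is a calcium- and calmodulin-activated phosphatase made of a catalytic and a regulatory subunit. It dephosphorylates NFAT proteins, which then enter the nucleus, and kinases such as DYRK1A and GSK3B return them to the cytoplasm. CaMKII is a multimeric kinase that phosphorylates calcium-handling proteins and class IIa histone deacetylases, and both arms are known for their part in pathological hypertrophy of the heart.

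RNA of the ventricular wall was sequenced in 6 WT and 6 KO libraries as mRNA captured with poly-T beads. The WT mice were littermates with floxed Sdhaf4 alleles and no Cre (Sdhaf4 fl/fl), and the KO mice carried the same alleles with Ckmm-Cre, whose muscle creatine kinase promoter drives recombination in cardiac and skeletal muscle. The labels call the genotypes wild type and Sdhaf4-/-, the strain C57BL/6 and the age 2 months, whereas the text describing the sequencing gives a younger age. The study's reporting summary gives male mice for the omics work, at ages of which the older is close to the labelled age. Cells other than striated muscle keep Sdhaf4 in this model, and no group carried Ckmm-Cre without floxed alleles, so effects of Cre and of Sdhaf4 loss cannot be told apart. Nothing in the labels says whether a library is 1 animal, so a heart below stands for 1 library.

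Library totals were 23747014 to 27159228 counts in WT and 26542930 to 31393393 in KO. Sdhaf4 itself was at 25.2 ± 5.80 CPM in WT and 2.40 ± 0.170 in KO (SD, n = 6 each), with WT replicate 6 lowest in its group at 14.3 CPM. CPM here are counts scaled by library size and by edgeR's TMM factor. The heart muscle was checked with 6 cardiomyocyte markers (Myh6, Tnnt2, Actc1, Myl2, Ryr2 and Atp2a2), all detected in every library. Their summed level was 43731 to 50149 CPM in WT and 34696 to 50998 CPM in KO, and 3 of 6 passed the test as lower (Atp2a2, Ryr2 and Myl2, with log2 fold changes of -0.99, -0.50 and -0.31) and none as higher. KO replicate 3 stood apart from the other KO hearts, with the highest sum of all 12 libraries. 5 fibroblast markers summed to 982 to 1163 CPM in WT and 1502 to 2179 CPM in KO, and 5 of 5 passed the test as higher. 5 endothelial markers summed to 1162 to 1300 and 1260 to 1531 CPM, with 3 of 5 higher. By the same test, described below, 25.6% of all rows tested were higher and 25.5% lower. In bulk tissue, fewer cells of a type and less RNA per cell cannot be told apart, and the part of these shifts in the results below was not tested.

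In the KO hearts, 2 of the 10 genes were higher and 4 were lower when judged by edgeR's quasi-likelihood test with a Benjamini-Hochberg adjusted p below 0.05. Rcan1 and Camk2d rose, Nfatc1, Nfatc2, Nfatc3 and Camk2b fell, and Ppp3ca, Ppp3cb, Ppp3r1 and Nfatc4 did not pass. Over all rows tested, 25.6% were higher and 25.5% lower by the same rule, 51.1% together, so a changed gene was common in this comparison. The 10 log2 fold changes ran from -0.80 to 0.53 with a median of -0.01, beside a median of 0.00 over all rows tested. None reached an absolute value of 1, which, with an adjusted p below 0.005, 5.36% of all rows did as higher and 4.87% as lower (10.2% together). The 6 KO libraries all lay above the 6 WT libraries for Camk2d and all below them for Nfatc2. The groups overlapped for the other 8 genes, whereas 14.9% of all rows tested had KO entirely above WT and 15.2% entirely below, 30.1% together.

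**Figure D1:**
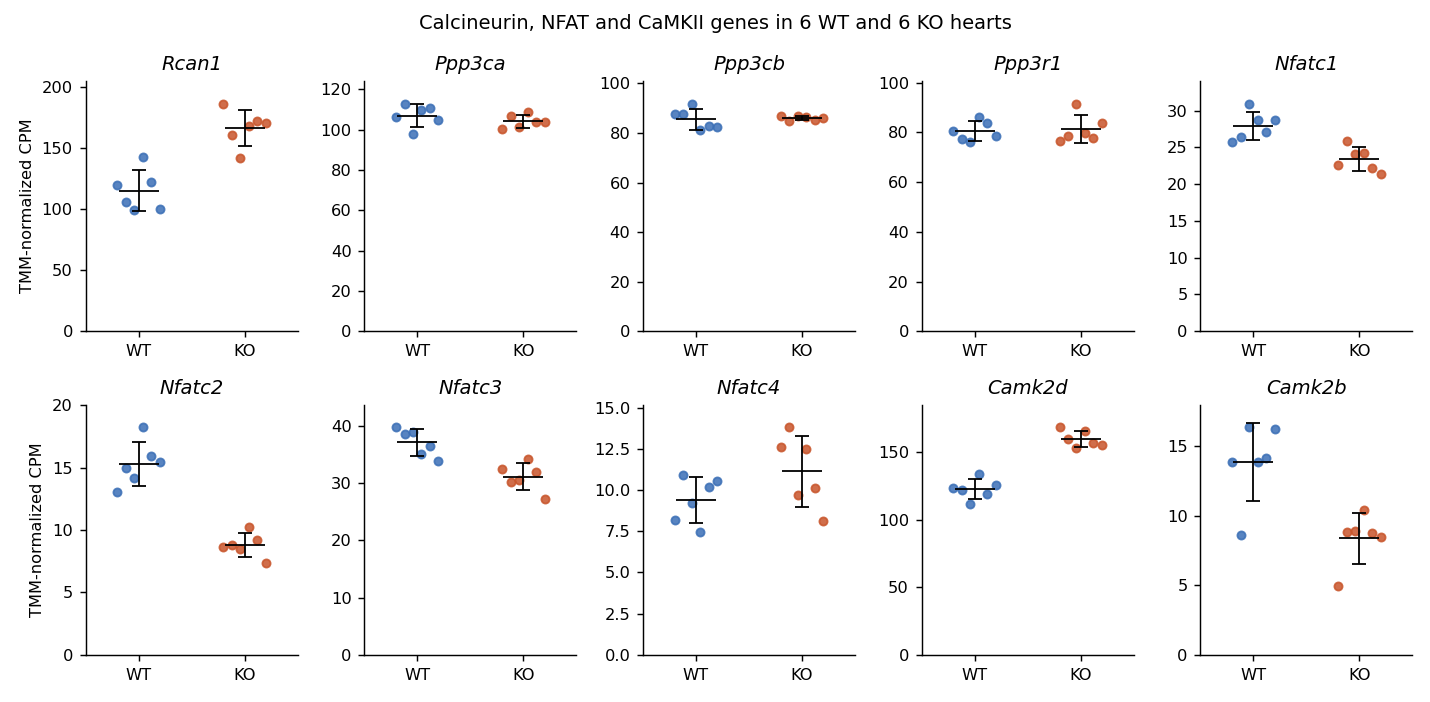
TMM-normalized CPM (vertical axes, each from 0) of the 10 genes in the 6 WT (blue) and 6 KO (orange) libraries. Points are libraries, horizontal lines means and bars SD; the groups separate fully for Camk2d, with KO at 153 to 168 CPM, and for Nfatc2, with KO at 7.35 to 10.2 CPM.

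Rcan1, the regulator of calcineurin, binds the phosphatase and inhibits it, and its short isoform is itself a textbook target of NFAT. In WT hearts Rcan1 lay between 99.4 and 143 CPM (median 113). In KO hearts it lay between 141 and 186 CPM (median 169). The groups met only where WT replicate 4, at 143 CPM, stood just above KO replicate 3, at 141 CPM. The means were 115 ± 16.7 and 166 ± 14.8 CPM (SD, n = 6 each), a 1.45-fold rise with a log2 fold change of 0.53 (SE 0.087, adjusted p = 8.67e-05, edgeR). Without WT replicate 4 the log2 fold change was 0.60, the highest value when libraries were left out in turn. Rcan1 (MGP_C57BL6NJ_G0023474) spans chromosome 16, 96468810 to 96543347, minus strand, on the C57BL/6NJ assembly that the identifiers name, and no other row overlaps it.

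Rcan1 has alternative first exons, and the 2 start sites that RefSeq lists (GRCm38.p6, minus strand) differ in the NFAT core sequence before them. The 250 bases upstream of each start are shown because the count per gene adds transcripts of both, and capitals mark GGAAA on either strand (TTTCC as its reverse complement).
Rcan1 downstream start, chr16:92400079-92400328: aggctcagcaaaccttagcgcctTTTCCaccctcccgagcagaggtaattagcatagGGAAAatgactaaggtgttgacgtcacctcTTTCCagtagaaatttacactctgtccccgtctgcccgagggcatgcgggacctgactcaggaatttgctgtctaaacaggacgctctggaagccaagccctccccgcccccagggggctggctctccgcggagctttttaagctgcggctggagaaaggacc
Rcan1 upstream start, chr16:92466170-92466419: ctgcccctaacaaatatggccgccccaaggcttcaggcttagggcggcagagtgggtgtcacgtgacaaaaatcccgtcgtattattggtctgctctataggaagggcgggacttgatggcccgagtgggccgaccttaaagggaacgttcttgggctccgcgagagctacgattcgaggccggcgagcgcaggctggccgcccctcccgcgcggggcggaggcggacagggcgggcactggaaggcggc
The window of the downstream start held 3 matches, 163, 193 and 227 bases before the start, and that of the upstream start held none. Of all 32851 windows of this length in the RefSeq table, 55.6% held at least 1 match and 6.39% at least 3. Windows were listed for 8 of the 10 genes, 11 windows in all, and 7 of the 11 held a match. The windows with 3 matches belonged to Ppp3cb, Nfatc4, 1 of the 2 starts of Nfatc2 and the downstream start of Rcan1. These genes did not move together, since Rcan1 was higher, Nfatc2 lower, and Ppp3cb and Nfatc4 did not pass the test. A match describes letters and not binding, and the table gives no separate level for the Rcan1 transcripts.

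The RNA of the calcineurin subunit genes Ppp3ca, Ppp3cb and Ppp3r1 was at nearly equal mean levels in the 2 groups. Ppp3ca, the catalytic subunit alpha, was between 97.6 and 113 CPM in WT (median 108) and between 100 and 109 CPM in KO (median 104). Its KO values lay inside the WT range, and the log2 fold change was -0.04 (approximate 95% interval -0.13 to 0.05, adjusted p = 0.502, edgeR). Ppp3cb, the catalytic subunit beta, was between 81.1 and 91.8 CPM in WT (median 85.2) and between 84.98 and 86.9 CPM in KO (median 86.3). The KO libraries sat in a narrow band inside the WT range. Its log2 fold change was 0.01 (approximate 95% interval -0.07 to 0.09, adjusted p = 0.879, edgeR).

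Ppp3r1 encodes calcineurin B, the calcium-binding regulatory subunit. It was between 75.9 and 86.3 CPM in WT (median 79.6) and between 76.7 and 91.5 CPM in KO (median 79.1). KO replicate 3 was the highest of the 12 libraries, and the rest of KO lay inside the WT range. The log2 fold change of 0.02 had an approximate 95% interval of -0.09 to 0.12 (adjusted p = 0.822, edgeR). For these 3 subunits, then, the intervals leave no room for a change as large as that of Rcan1, whose own interval was 0.36 to 0.70.

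The positions of the subunit genes bear on how surely reads were assigned. Ppp3r1 (MGP_C57BL6NJ_G0018449, chromosome 11, 15182049 to 15232394, plus strand) overlaps Wdr92 on the same strand, and Wdr92 held 16.4% as many counts as Ppp3r1 (log2 fold change -0.10, adjusted p = 0.323, edgeR). Its value is therefore less certain than those of Ppp3ca (MGP_C57BL6NJ_G0028326, chromosome 3, 144475207 to 144764704, plus strand) and Ppp3cb (MGP_C57BL6NJ_G0021423, chromosome 14, 13756881 to 13808755, minus strand). The rows overlapping Ppp3ca held 0.0173% as many counts as it did, and those overlapping Ppp3cb 1.11%.

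The RNA of Rcan1 was compared with that of Ppp3ca and Ppp3cb within each library, from the deposited FPKM, which is scaled by gene length and library size. Rcan2, of the same family as Rcan1, is not in this ratio. By FPKM, Rcan2 was at 183 ± 7.56 in WT and 193 ± 10.3 in KO, against 50.8 ± 6.85 and 73.7 ± 7.81 for Rcan1 (SD, n = 6 each). The ratio is therefore not the balance of all inhibitors to the phosphatase, nor one of proteins. The ratio of Rcan1 to the sum of Ppp3ca and Ppp3cb was 0.418 to 0.593 in WT and 0.598 to 0.789 in KO, so the highest WT heart fell just short of the lowest KO heart. The means were 0.475 ± 0.069 and 0.695 ± 0.064 (SD, n = 6 each), a log2 difference of 0.56 (SE 0.099, two-sided exact permutation test, p = 0.00216, adjusted p = 0.00288 over 4 ratios and sums). With the gene lengths listed in the table the log2 difference was also 0.56 (exact permutation p = 0.00433). The ratio of Ppp3ca to Ppp3cb was 1.29 ± 0.11 in WT and 1.24 ± 0.045 in KO (log2 difference -0.05, SE 0.057, exact permutation p = 0.431, adjusted p = 0.431). It depended on 1 library, since without WT replicate 3, the heart with the lowest ratio, the difference was -0.09 (exact permutation p = 0.0303). A p of 0.00216 is the smallest that 6 libraries against 6 allow.

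**Figure D2:**
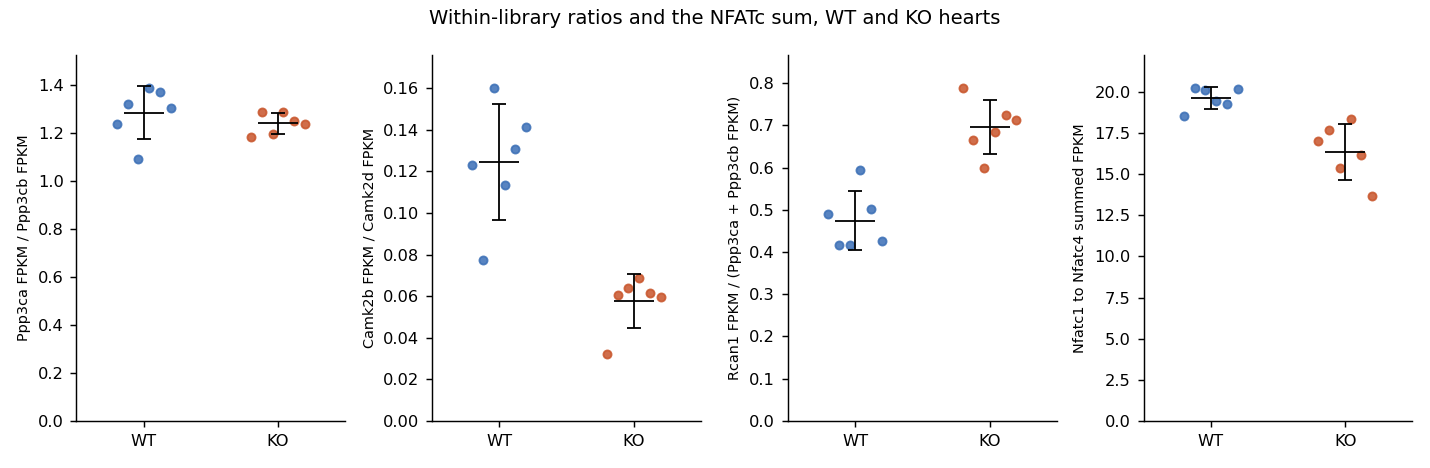
Within-library FPKM ratios (no unit) and the summed FPKM of Nfatc1 to Nfatc4, on axes from 0, for 6 WT (blue) and 6 KO (orange) libraries. Points are libraries, lines means and bars SD; the Camk2b ratio, the Rcan1 ratio and the NFAT sum do not overlap between groups, and the Ppp3ca to Ppp3cb ratio does.

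The NFAT genes encode the calcineurin-dependent transcription factors, and 3 of the 4 were lower in the KO hearts. Nfatc2, best known from T cells, changed most. It was between 13.1 and 18.2 CPM in WT (median 15.2) and between 7.35 and 10.2 CPM in KO (median 8.71). Every KO heart lay below every WT heart. The means of 15.3 ± 1.74 and 8.79 ± 0.943 CPM (SD, n = 6 each) gave a log2 fold change of -0.80 (SE 0.094, adjusted p = 2.28e-06, edgeR), so that WT was 1.74-fold above KO. This absolute log2 fold change exceeded that of 82.3% of the rows tested. Nfatc2 (MGP_C57BL6NJ_G0027350) spans chromosome 2, 179403832 to 179530698, minus strand, with no overlapping row. 5 T cell markers (Cd3e, Cd3d, Cd4, Cd8a and Lck) summed to only 1.69 to 4.53 CPM in WT and 1.85 to 7.94 CPM in KO. Of the 4 tested, 1 passed the test, as higher, beside 25.6% of all rows tested. At so low a level the part of T cells in the Nfatc2 result was not tested.

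Nfatc1, which is needed in the endocardium for valve formation, was between 25.7 and 30.9 CPM in WT (median 27.9) and between 21.3 and 25.9 CPM in KO (median 23.3). Only KO replicate 2, at 25.9 CPM, reached into the WT range. The log2 fold change was -0.26 (SE 0.064, adjusted p = 0.00285, edgeR). The summed level of the endothelial markers was 1.13 times as high in KO as in WT, and its part in the Nfatc1 result was not tested.

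Nfatc3 was between 33.8 and 39.7 CPM in WT (median 37.5) and between 27.2 and 34.1 CPM in KO (median 31.2). KO replicate 4, at 34.1 CPM, stood above WT replicate 6, at 33.8 CPM, and no other pair crossed. Nfatc3 had a log2 fold change of -0.25 (SE 0.062, adjusted p = 0.00236, edgeR), close in size to that of Nfatc1. Both were smaller than the median absolute log2 fold change of all rows tested, 0.299. It spans chromosome 8, 112364142 to 112453585, plus strand, and overlaps Esrp2 on the minus strand, which held 1.30% as many counts.

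Nfatc4 was the only NFATc gene with a higher mean in KO, and it did not pass the test. It was between 7.43 and 10.9 CPM in WT (median 9.68) and between 8.15 and 13.8 CPM in KO (median 11.3). KO replicates 1, 2 and 4 lay above all WT hearts, whereas KO replicate 6 was lower than 5 of the 6 WT hearts. The log2 fold change of 0.24 had an SE of 0.131 and an adjusted p of 0.132 (edgeR), and without KO replicate 6 these became 0.32 and 0.0393. It spans chromosome 14, 52369945 to 52379082, plus strand.

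Per length, Nfatc1 and Nfatc3 were the more abundant NFATc genes in both groups. By FPKM, Nfatc1 was at 7.01 ± 0.471 and Nfatc3 at 6.16 ± 0.383 in WT, above Nfatc2 at 3.88 ± 0.434 and Nfatc4 at 2.58 ± 0.413 (SD, n = 6 each). In KO, Nfatc2 was at 2.24 ± 0.287 FPKM and Nfatc4 at 3.07 ± 0.646. The WT order of Nfatc2 and Nfatc4 depended on the gene length, since with the length listed in the table in place of the one behind the FPKM, Nfatc2 was at 2.24 ± 0.250 and Nfatc4 at 2.34 ± 0.374 in WT, with overlapping ranges. In KO, Nfatc2 was the lower of the pair with either length. The summed FPKM of the 4 genes was 18.6 to 20.2 in WT and 13.7 to 18.4 in KO, with no overlap. The means of 19.6 ± 0.669 and 16.4 ± 1.70 (SD, n = 6 each) differed by -0.27 on the log2 scale (SE 0.066, two-sided exact permutation test, p = 0.00216, adjusted p = 0.00288).

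The 2 CaMKII genes moved in opposite directions. Camk2d encodes the delta isoform, the main CaMKII of the heart. It was between 112 and 134 CPM in WT (median 123) and between 153 and 168 CPM in KO (median 158). Every KO heart lay above every WT heart. The means of 123 ± 7.26 and 160 ± 6.05 CPM (SD, n = 6 each) gave a 1.30-fold rise, a log2 fold change of 0.38 (SE 0.048, adjusted p = 5.01e-06, edgeR). Camk2d (MGP_C57BL6NJ_G0028274) spans chromosome 3, 133701460 to 133962472, plus strand. Of the 8 rows that overlap it, the largest held 0.622% as many counts.

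Camk2b, the beta isoform best known from neurons and skeletal muscle, was much less abundant. It was between 8.64 and 16.3 CPM in WT (median 14.0) and between 4.95 and 10.4 CPM in KO (median 8.79). WT replicate 2, at 8.64 CPM, sat inside the KO range, and the remaining WT hearts were at 13.8 CPM or more. The means of 13.8 ± 2.79 and 8.37 ± 1.81 CPM (SD, n = 6 each) gave a log2 fold change of -0.72 (SE 0.168, adjusted p = 0.00203, edgeR), with WT 1.65-fold above KO. Without WT replicate 2 it was -0.83. Camk2b (MGP_C57BL6NJ_G0018407) spans chromosome 11, 3142571 to 3242742, minus strand, with no overlapping row.

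The ratio of Camk2b to Camk2d FPKM was 0.0776 to 0.160 in WT and 0.0323 to 0.0688 in KO. No KO heart reached the lowest WT heart. The means of 0.124 ± 0.028 and 0.0578 ± 0.0129 (SD, n = 6 each) differed by -1.11 on the log2 scale (SE 0.22, two-sided exact permutation test, p = 0.00216, adjusted p = 0.00288).

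The other CaMKII genes show where this change in ratio stood within the family. Camk2a, whose alpha isoform is best known from neurons, fell from 40.6 ± 3.19 to 13.3 ± 2.17 CPM (SD, n = 6 each), a log2 fold change of -1.60 (SE 0.092, adjusted p = 7.13e-10, edgeR). The count per gene adds all transcripts of a gene. The shares below are therefore of RNA per gene, and not of kinase proteins or of single transcripts. Camk2g, the gamma isoform, had a log2 fold change of -0.15 (adjusted p = 0.0384, edgeR), which lost its call in 5 of the 12 fits that left out 1 library. The summed FPKM of the 4 CaMKII genes was 92.5 ± 3.03 in WT and 90.3 ± 3.96 in KO, with overlapping ranges of 88.6 to 97.1 and 85.3 to 96.7. Within that sum, Camk2d took 53.9% in WT (range 49.7% to 57.3%) and 72.1% in KO (range 70.3% to 75.7%), given as a description without a test. The share of Camk2a was 21.5% in WT and 7.26% in KO, that of Camk2b 6.67% and 4.15%, and that of Camk2g 17.9% and 16.5%. With the listed gene length in place of the shorter one behind the FPKM, the share of Camk2d was 44.5% in WT and 60.1% in KO, that of Camk2g 32.2% and 30.1%, that of Camk2a 16.4% and 5.58%, and that of Camk2b 6.89% and 4.32%. Camk2g then stood above Camk2a in WT, the reverse of their order by FPKM, and the larger share of Camk2d in KO remained.

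**Figure D3:**
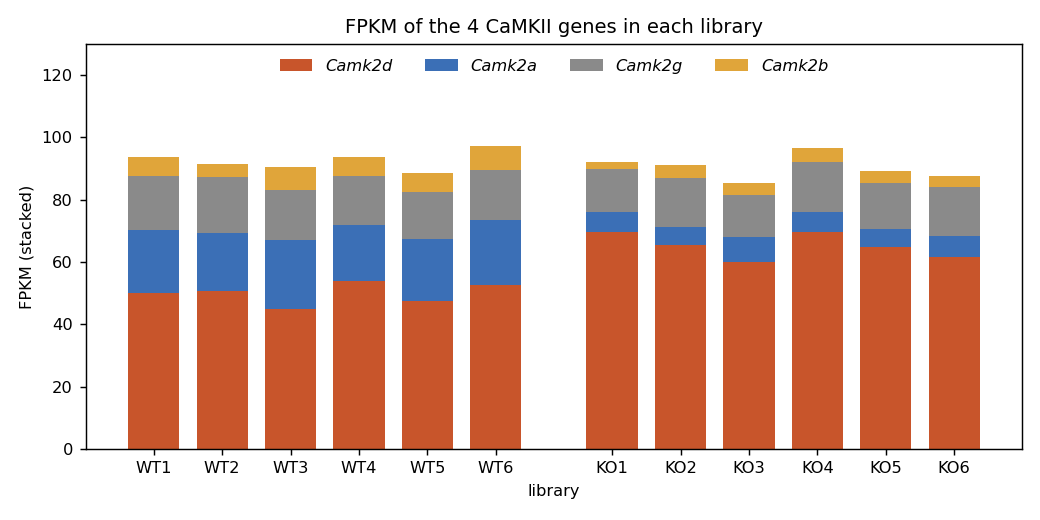
Stacked FPKM (vertical axis, from 0) of Camk2d, Camk2a, Camk2g and Camk2b in each of the 12 libraries (horizontal axis). The stacks are of like height in both groups, and Camk2d fills 70.3% to 75.7% of each KO stack and 49.7% to 57.3% of each WT stack.

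Among all 10 genes, the order of FPKM in WT was Ppp3ca (60.2 ± 3.43), Rcan1 (50.8 ± 6.85), Camk2d (49.9 ± 3.30), Ppp3cb (46.9 ± 2.38), Ppp3r1 (44.0 ± 1.89) and then the remaining 5 at 7.01 or less (SD, n = 6 each). The WT ranges of neighbours from Ppp3ca to Ppp3r1 overlapped. In KO, Rcan1 (73.7 ± 7.81) and Camk2d (65.1 ± 3.98) stood above Ppp3ca (58.7 ± 2.93), although the ranges of neighbours among these 3 overlapped. This order turned with the gene length. The lengths behind the FPKM of Ppp3ca (1774 bases), Ppp3cb (1820 bases) and Camk2d (2456 bases) are below 50% of those listed in the same table (4758, 3831 and 5524 bases), whereas that of Rcan1 (2258 bases) is close to its listed 2324 bases. With the listed lengths, Rcan1 led in WT at 49.3 ± 6.66, followed by Ppp3r1 at 28.1 ± 1.21, and Ppp3ca, Ppp3cb and Camk2d were at 22.5 ± 1.28, 22.3 ± 1.13 and 22.2 ± 1.47 (SD, n = 6 each). In KO, Rcan1 led at 71.7 ± 7.59, and Camk2d at 29.0 ± 1.77 and Ppp3r1 at 28.4 ± 1.32 followed with overlapping ranges.

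The members were also set beside 50 other genes of the pathway, of which 47 were tested (Ppp3r2 and Trpc6 did not pass the filter on low counts, and Mef2b matched no row). Of these, 22 were higher (46.8%) and 13 lower (27.7%) in KO, against 25.6% and 25.5% of all rows tested, and their median log2 fold change was 0.18. The list was written with earlier results of these data known, so these shares, and the counts in the small role groups below, are a description. KO lay entirely above WT for 17 of the 47 and entirely below for 6, beside 14.9% and 15.2% of all rows tested.

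Upstream of calcineurin and CaMKII, the calmodulin genes Calm2 and Calm3 were higher. Calm2 had a log2 fold change of 0.49 and Calm3 of 0.43 (adjusted p = 8.83e-07 and 4.31e-06, edgeR), and in each the KO hearts lay entirely above WT. Among 5 tested genes of calcium entry, Stim1, the calcium sensor of the endoplasmic reticulum, was higher (0.24, adjusted p = 0.0233) and Cacna1c, the pore of the L-type calcium channel, was lower (-0.17, adjusted p = 0.0461, edgeR). Both calls were fragile, being lost in 4 and in 9 of the 12 fits that left out 1 library.

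Of 10 genes that regulate calcineurin, 4 were higher, 3 were lower and 3 did not pass. Of all rows tested, 25.6% were higher and 25.5% lower. Rcan3, a relative of Rcan1, rose from 16.0 ± 1.24 to 21.3 ± 1.11 CPM (log2 fold change 0.41, adjusted p = 5.75e-05, edgeR), with KO entirely above WT. Rcan2, the third gene of that family, was at 463 ± 19.0 and 488 ± 37.7 CPM (SD, n = 6 each) and did not pass (0.08, adjusted p = 0.277). Fkbp1a, the FK506-binding protein through which that drug inhibits calcineurin, had a log2 fold change of 0.42 (adjusted p = 5.76e-06). Myoz2, calsarcin-1, which tethers calcineurin to the sarcomere, fell from 1202 ± 57.7 to 834 ± 79.2 CPM (-0.53, adjusted p = 3.37e-06), with KO entirely below WT. Its relative Myoz1 had a log2 fold change of 2.55 (adjusted p = 4.13e-05) at a very low level, 0.135 CPM in WT and 0.824 CPM in KO, with 1 to 7 counts per WT library. The scaffold gene Akap5, also low at 2.22 and 1.14 CPM, was lower (-0.96, adjusted p = 0.00152), as was Chp1, a calcineurin B homologue (-0.14, adjusted p = 0.0155, edgeR). Ppp3cc, the third catalytic subunit gene, did not pass (0.07, adjusted p = 0.376).

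Of 6 kinases that phosphorylate NFAT, 4 were higher and 1 was lower, beside 25.6% and 25.5% of all rows tested. Dyrk1a rose from 62.4 ± 4.16 to 87.9 ± 6.17 CPM (log2 fold change 0.49, adjusted p = 1.72e-06, edgeR), and KO lay entirely above WT. Csnk1a1 (0.28) and Gsk3b (0.18) were also higher, and Dyrk2 was lower (-0.26, adjusted p = 0.0125). Nfat5, which responds to osmotic stress and does not depend on calcineurin, rose from 106 ± 4.13 to 138 ± 6.90 CPM (0.38, adjusted p = 2.78e-06), so the fall of Nfatc1 to Nfatc3 was not shared by it.

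Downstream of CaMKII, 5 of 6 class IIa histone deacetylase and MEF2 genes were lower and none was higher. Of all rows tested, 25.5% were lower and 25.6% higher. Hdac5 fell from 143 ± 5.28 to 89.2 ± 9.41 CPM (log2 fold change -0.68, adjusted p = 1.16e-07, edgeR). Hdac9 (-0.63) and Mef2d (-0.23) were lower too, whereas Mef2c did not pass (0.04, adjusted p = 0.634). Of 6 other calmodulin-dependent kinase genes, 4 were higher, beside 25.6% of all rows tested. Among them were Camkk2 (0.28, adjusted p = 0.00291), Camkk1 (1.60, adjusted p = 3.82e-05) and Camk1g (2.04, adjusted p = 0.00343), the last at 0.437 CPM in WT and 1.81 CPM in KO. The size of the Camk1g rise depended on WT replicate 6, without which its log2 fold change was 2.81. Its call held in all 12 fits that left out 1 library. Camk2n1, an inhibitor of CaMKII, was slightly lower (-0.18, adjusted p = 0.0381) and lost its call in 7 of the 12 fits that left out 1 library. All 5 hypertrophy genes often used as readouts of these pathways were higher, beside 25.6% of all rows tested. Their log2 fold changes ran from 0.63 for Gata4 to 5.65 for Nppa, with Nppb at 2.56. For Myh7, KO replicate 6 was at 6708 CPM and the other KO hearts at 1239 to 2249 CPM, with the highest WT heart at 1202 CPM. The part of calcineurin and CaMKII in these rises was not tested.

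**Figure D4:**
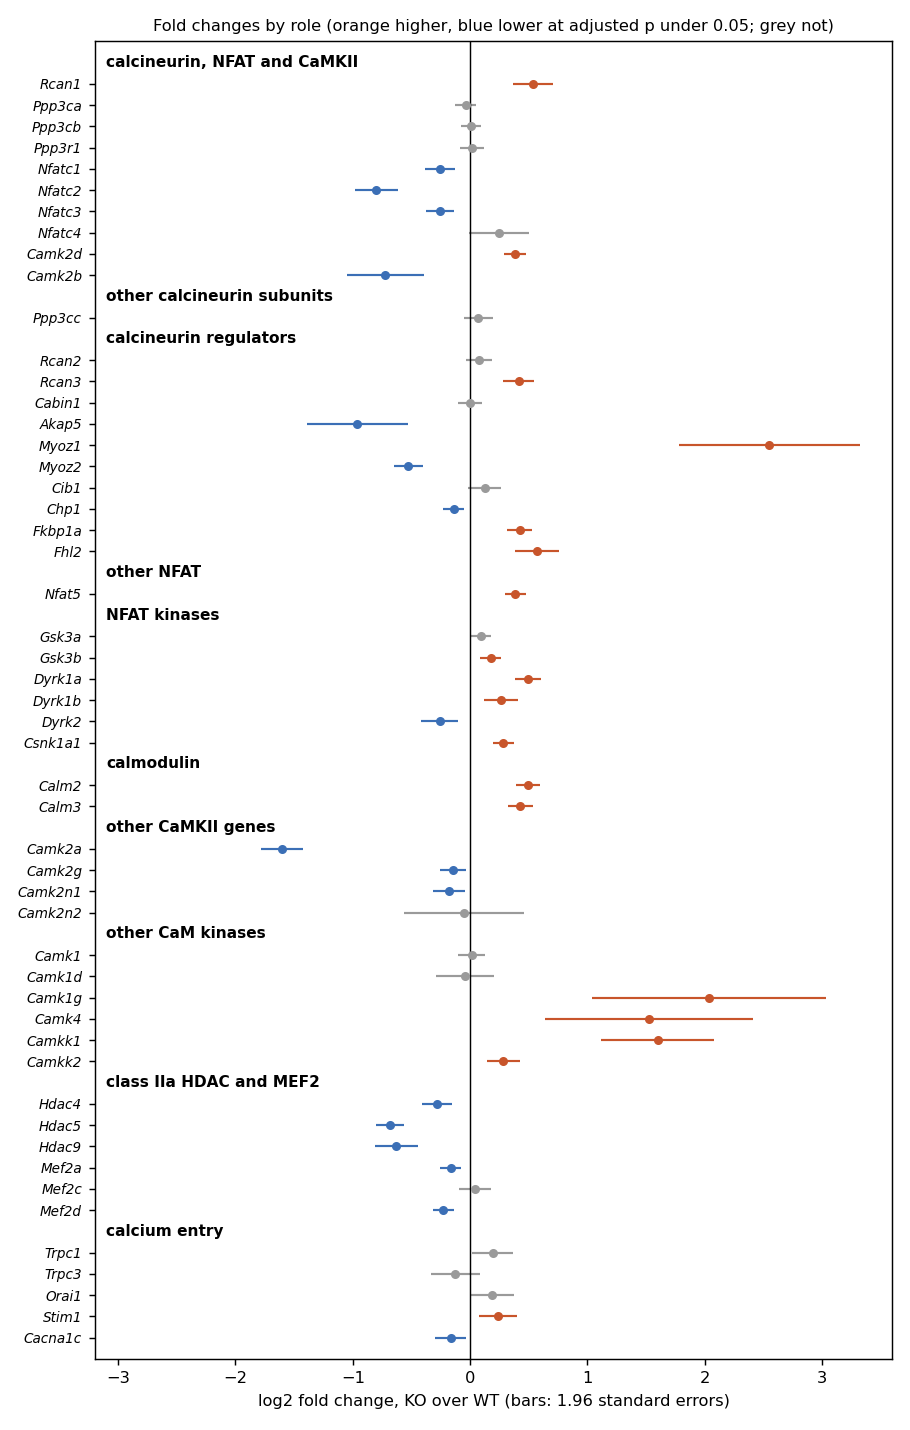
Log2 fold changes of KO over WT (horizontal axis) of the 10 genes and other tested pathway genes, grouped by role. Bars are approximate 95% intervals, by a normal approximation. The 5 hypertrophy genes and 1 further gene are not drawn. Orange points passed the test as higher, blue as lower and grey did not pass; Calm2 and Calm3 lie to the right of 0 and class IIa HDAC and MEF2 genes, except Mef2c, to the left.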

How the data were processed

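RNA of 12 ventricular wall samples (6 WT, 6 KO) was sequenced, and groups were taken from the sample labels. Per the methods and labels, the authors used a TruSeq RNA kit, mapped reads with HISAT2 (2.0.5) and counted them per gene with HTSeq. The authors deposited raw counts and FPKM, which they scaled by gene length and library size. The labels name build mm10, whereas the identifiers are those of the C57BL/6NJ assembly, on which all gene coordinates above are given. The strand setting is not given in the sources used here, so reads of overlapping rows cannot be told apart. The authors also deposited the output of their DESeq comparison, a log2 fold change, p-value and adjusted p-value per row. The group means of counts that the authors scaled for library size are a signal, and neither these nor the DESeq columns were used.

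For the counts, edgeR 4.0.16 (R 4.3.3) was run with its filterByExpr filter, which left 17155 of 43686 rows, TMM scaling and the robust quasi-likelihood test. P-values were adjusted by Benjamini-Hochberg over those rows, with a threshold of 0.05. CPM are TMM-scaled, and standard errors were derived from each fold change with its F value. The 4 FPKM ratios and sums were compared by a two-sided exact permutation test, adjusted over 4. They combine genes also tested singly in the same libraries, so they are not separate evidence. The members and gene lists were chosen with earlier results of these data known. Besides the members, the text names up to 3 genes per role and direction with the smallest p, and the role groups in which none passed. It also names the 3 genes most like the members with the largest rise and fall, and Sdhaf4. Rcan2, Mef2c, Myh7 and the family members given for their share were added after their values were seen. 1 gene of the pathway list enters its counts and is not reported by itself here. The procedure was run on simulated counts with 1 dispersion for all genes and few changed genes. Since 51.1% of rows were called here, that setting does not show the error rates for these data.

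Depth was 23747014 to 31393393 counts per library. Libraries of 1 group differed beyond sampling noise, and p-values measure only the spread between these samples, which may be technical. Alternatives were DESeq2 1.42.0 (size factors, Wald test), library size only, no unannotated loci, no filter, a replicate block and each library left out; leaving out WT replicate 6 and KO replicate 3 together and using the listed gene length were added after seeing the data.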

Additional observations from a re-analysis of the deposited data

Results flagged for a closer look

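Examined were 86 groups of 6 libraries, in WT and in KO. They covered the members, the genes named by smallest p, Sdhaf4, the ratios and the sum. In 10 groups, the highest or lowest library lay apart by more of the group's range than Dixon's criterion at the 95% level allows. Chance would give about 4.3 such groups. Genes added after their values were seen, among them Myh7, were not examined. Camk2b stood out in both groups. In WT replicate 2 it was at 8.64 CPM, with the other WT hearts at 13.8 to 16.3 CPM, and in KO replicate 1 at 4.95 CPM, with the other KO hearts at 8.43 to 10.4 CPM. The Camk2b to Camk2d ratio of KO replicate 1 was 0.0323, below the 0.0597 to 0.0688 of the other KO hearts. Camk2a was at 17.5 CPM in KO replicate 3 and at 11.7 to 13.8 CPM in the other KO hearts.

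Fkbp1a was at 210.03 CPM in WT replicate 6, against 177 to 189 CPM in the other WT hearts. Rcan3 was at 23.6 CPM in KO replicate 5, against 20.6 to 21.3 CPM. Myoz2 was at 1309 CPM in WT replicate 5, against 1152 to 1210 CPM. Camk1g, a gene of low counts, was at 1.34 CPM in WT replicate 6 (others 0.0361 to 0.517) and at 3.13 CPM in KO replicate 4 (others 1.25 to 1.95). Sdhaf4 was at 2.73 CPM in KO replicate 1, against 2.25 to 2.41 CPM in the other KO hearts. What sets these libraries apart was not tested.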

How the results depend on the processing

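Of 190 alternative values for the 10 genes, 181 kept the direction and the side of the threshold. Ppp3cb, near 0 throughout, turned to -0.00016 on the log2 scale without the unannotated loci and to -0.012 without WT replicate 6 and KO replicate 3, which also took Ppp3r1 to -0.034; none of these passed the test. Leaving out 1 library at a time, Ppp3cb ranged from -0.013 to 0.024, Ppp3r1 from -0.026 to 0.033 and Nfatc4 from 0.18 to 0.32. The count of the 10 genes higher then ranged from 2 to 3 and lower stayed at 4, and the pathway genes higher ranged from 21 to 23 and lower from 10 to 13. The Ppp3ca to Ppp3cb log2 difference ranged from -0.094 to -0.024. Same-numbered libraries did not deviate together over all rows tested (correlations -0.16 to 0.02). No pairing by number was seen, although a pairing that moves few genes could be missed. With the replicate block, 2 and 4 of the 10 genes and 21 and 10 pathway genes were called (Stim1, Camk2g, Chp1 and Cacna1c were lost), and the 3 ratios and sums past the threshold had an exact p of 0.0313, the smallest that 6 pairs allow. The median log2 fold change of all rows was 0.0022 in the main fit, 0.0027 with DESeq2 size factors and 0.0037 with library size only. Without the filter, over 27883 rows, it was 0.024. Depth limits Camk2b, Nfatc4 and Nfatc2 most, with 154 counts of Camk2b in the lowest library.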

Other observations

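The genes whose profile over the 12 libraries was nearest to that of Rcan1, by root mean square difference of log2 CPM relative to the WT mean among 11166 genes, were Hspb6 (difference 0.10, log2 fold change 0.60), which encodes a small heat shock protein of striated muscle, Galk2 (0.11, 0.47) and Cerk (0.11, 0.46), a ceramide kinase. Hspb6 was at 438 CPM in WT and 662 CPM in KO. Nearest to Nfatc2 were Pde3a, a cAMP phosphodiesterase of the heart (0.10, -0.71), Lsm10 (0.12, -0.81) and Ncln (0.12, -0.75). Pde3a was at 143 CPM in WT and 87.3 CPM in KO. These values describe likeness only.

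The make-up of the other families is given as values without a test. The summed FPKM of Ppp3ca, Ppp3cb and Ppp3cc was 124.6 in WT and 124.4 in KO, of which Ppp3ca took 48.3% and 47.2%, Ppp3cb 37.7% and 38.0%, and Ppp3cc 14.0% and 14.8%. With the gene length listed in the table in place of the one behind the FPKM, these shares were 36.1% and 34.9% for Ppp3ca, 35.8% in both groups for Ppp3cb, and 28.1% and 29.3% for Ppp3cc. Of the summed NFATc FPKM, Nfatc2 took 19.8% in WT and 13.7% in KO, Nfatc4 13.1% and 18.6%, Nfatc1 35.7% and 36.1%, and Nfatc3 31.4% and 31.7%. With the listed length, Nfatc2 took 13.3% and 8.99%, Nfatc4 13.9% and 19.3%, Nfatc1 36.1% and 35.6%, and Nfatc3 36.7% and 36.2%.

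Of the remaining marker lists, 5 macrophage markers summed to 155 to 214 CPM in WT and 160 to 236 CPM in KO. Among these 5, 1 was higher and 2 were lower, beside 25.6% and 25.5% of all rows tested. 4 smooth muscle markers summed to 169 to 335 and 163 to 259 CPM, with 2 lower. 3 atrial markers, of which 1 was tested, summed to 1.49 to 3.07 and 3.03 to 4.502 CPM.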
